A study of Mus musculus with 11 samples.

Results

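Mitochondrial fatty acid oxidation is described here through 10 enzymes that carry, shorten and drain electrons from fatty acyl chains: Cpt1a, Cpt2, Acadm, Acadl, Acadvl, Hadha, Hadhb, Etfa, Etfb and Etfdh. They were listed by gene symbol, with earlier results of these data known. All 10 are among the 10992 genes of the deposited expression table and among the 10429 genes tested. The cells were Tregs (regulatory T cells), which express Foxp3 and restrain immune responses; they were sorted alive as CD3+ CD4+ Foxp3+ and profiled by bulk RNA sequencing. Male mice aged 25 weeks were the source, and the tissues were spleen and VAT (visceral adipose tissue); the labels do not tie a spleen sample to a VAT sample of the same mouse. Every mouse carried Foxp3 YFP-cre, a Cre recombinase expressed from the Foxp3 locus with a yellow fluorescent protein, so that deletion is directed to Foxp3+ cells. The Srebf2-wt/wt mice are called WT and the Srebf2-flox/flox mice KO. The product of Srebf2, SREBP2, turns on genes of cholesterol synthesis and uptake. There were 3 samples each of VAT WT and VAT KO, and 2 each of spleen WT and spleen KO, numbered 2 and 3 in both. The labels do not say whether replicates came from separate mice, so the p-values reflect how these samples varied, and that variation may be technical.

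Fatty acids are activated to acyl-CoA, moved into mitochondria on carnitine by CPT1 and CPT2, and shortened in repeated rounds of dehydrogenation, hydration, dehydrogenation and thiolysis that release acetyl-CoA. The first dehydrogenation in each round passes electrons through electron transfer flavoprotein (ETF) to ubiquinone in the respiratory chain. CPT1 is the step at which malonyl-CoA, the building block of fatty acid synthesis, restrains the pathway. VAT Tregs are known for a transcriptional programme that depends on PPARg, a nuclear receptor activated by fatty acids, and for lipid uptake.

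Levels are in RPKM, which divides reads by transcript length and by sequencing yield, and differences are on the log2(RPKM + 1) scale with their standard error. A gene is said to be called when limma gave a Benjamini-Hochberg adjusted p under 0.05 over all 10429 genes. The table gives no counts, so read depth is unknown. Each library had 9551 to 9774 genes at 1 RPKM or more. The deletion showed in the table: Srebf2 was at 16.6, 15.6 and 30.5 RPKM in the VAT WT samples but at 0.263, 0.600 and 1.23 in their KO counterparts. In spleen it was at 10.5 and 23.2 RPKM with WT and 2.59 and 1.59 with KO alleles. The Srebf2 difference was called in VAT (-3.67 ± 0.33, limma adjusted p = 0.00081). It was not called in spleen (-2.45 ± 0.40, limma adjusted p = 0.244). Spleen WT replicate 2 stood apart. Its correlation with the other 3 spleen libraries was 0.926 to 0.932, against 0.970 to 0.978 among those 3, so results that rest on spleen WT are also given without it. The sort marker Foxp3 was at 6.97 to 8.87 RPKM in spleen and 13.3 to 16.4 in VAT, and the sum over 8 Treg markers was 655 to 701 and 976 to 1049. The 8 did not all move the same way. In WT, Foxp3, Il2ra, Ctla4 and Tnfrsf18 were called higher in VAT and Ikzf4 (-1.03) and Cd3e (-0.49) lower. In KO, Foxp3, Ctla4 and Tnfrsf18 were called higher and Cd3e (-0.40) lower. The Ikzf4 call was lost in 7 of 19 alternative settings, and the Cd3e call in 3 in WT and 10 in KO.

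At the entry step, Cpt1a, the outer membrane carnitine palmitoyltransferase, was the enzyme whose level differed most between the tissues. It stood at 31.4, 31.1 and 33.1 RPKM in the 3 VAT WT samples and at 34.8, 34.3 and 41.8 in VAT KO. In spleen it stood at 6.30 and 9.42 RPKM in WT and at 12.9 and 15.5 in KO. All 6 VAT values lay above all 4 spleen values, and within each tissue every KO value lay above every WT value. Among the 10992 genes, the group mean of Cpt1a fell at percentile 88.5 in VAT WT, 90.6 in VAT KO, 53.3 in spleen WT and 70.1 in spleen KO. Cpt2, the inner membrane transferase that returns the acyl group to CoA, was the lowest of the 10 enzymes in every group. Its RPKM was 4.37, 5.37 and 5.04 in VAT WT and 4.32, 6.89 and 2.75 in VAT KO. Its spleen values, 4.85 and 2.91 in WT and 6.16 and 4.02 in KO, fell in the same range, and no pair of groups was separated.

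**Figure D1:**
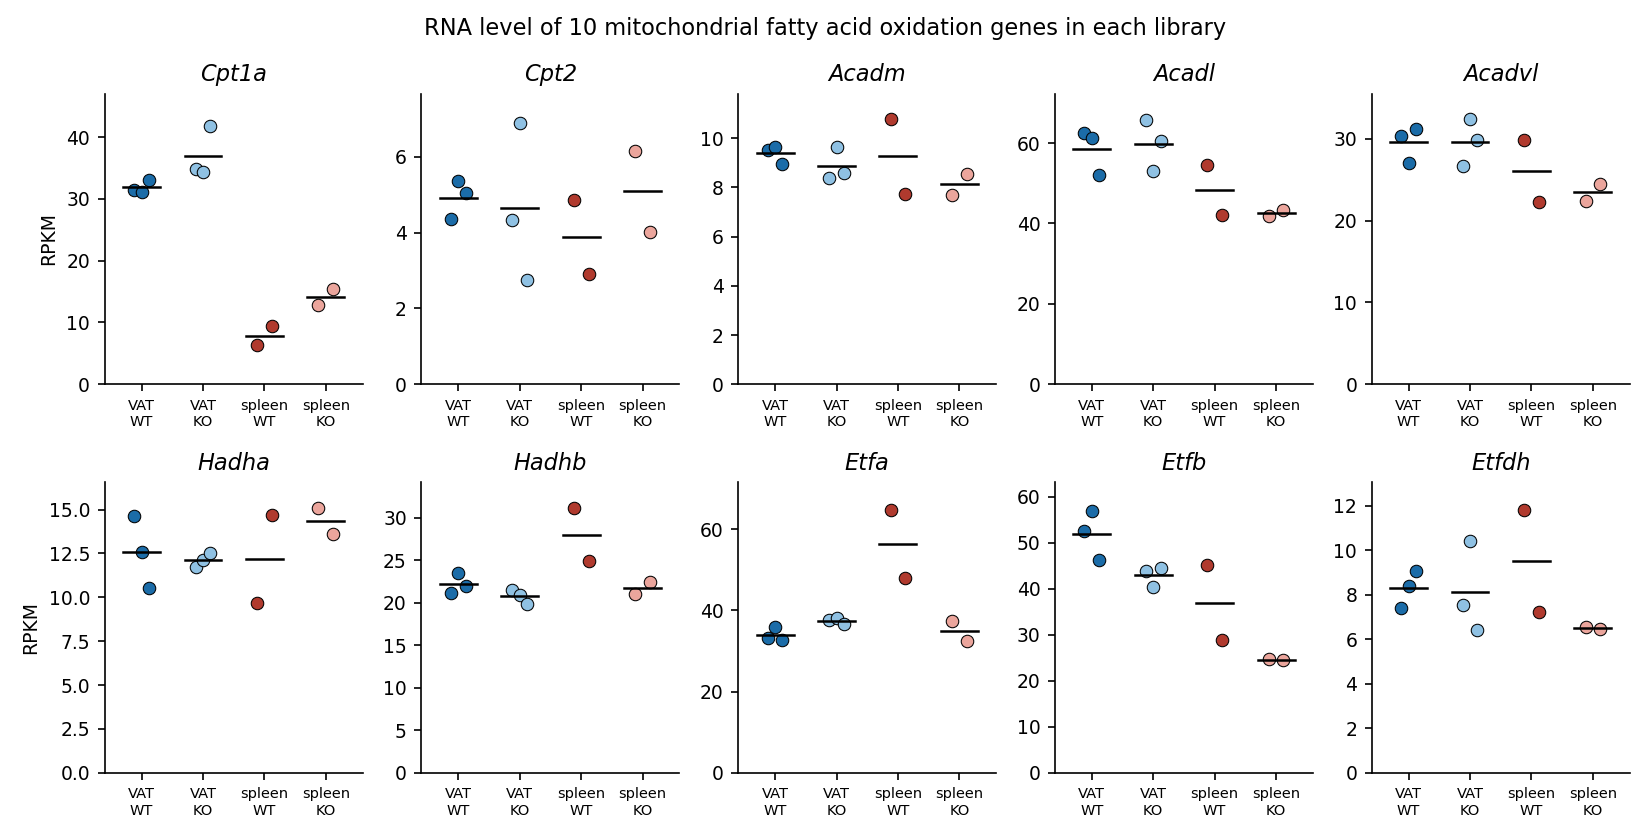
RNA level (RPKM, linear axis from 0) of each enzyme in each tissue and genotype (3 samples a group from VAT, 2 from spleen); points are samples and bars are group means. Cpt1a runs from 6.30 RPKM in spleen to 41.8 in VAT with no overlap between tissues, while the groups of Cpt2, Acadm and Acadvl lie close together.

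The acyl-CoA dehydrogenases open each round of oxidation and differ in the chain length they prefer. Acadl, the long-chain dehydrogenase, was the most abundant of the 3, at 62.4, 61.4 and 52.0 RPKM in VAT WT and 65.8, 53.0 and 60.4 in VAT KO. In spleen it was at 54.6 and 42.0 RPKM in WT and 41.8 and 43.4 in KO. The value of spleen WT replicate 2 lay inside the VAT range and the other 3 spleen values below it. Acadvl, the very-long-chain dehydrogenase of the inner membrane, ranged from 26.7 to 32.4 RPKM in VAT and from 22.2 to 29.9 in spleen. Acadm, the medium-chain dehydrogenase, ranged from 8.37 to 9.66 RPKM in VAT and from 7.72 to 10.8 in spleen. For both genes the highest spleen value was that of spleen WT replicate 2. On mm10 with GENCODE M21, 42.9% of the exonic bases of Acadvl (chr11:70010183-70015411, minus strand) overlap exons of Dvl2 on the other strand. The library kit does not mark strand and the counting is not given in the sources used here, so part of the Acadvl value may be Dvl2 reads. Dvl2 itself was listed at 3.89 to 7.98 RPKM.

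Hadha and Hadhb encode the alpha and beta subunits of the mitochondrial trifunctional protein, which carries out the remaining steps on long chains, and lie head to head on chromosome 5 (chr5:30118304-30155162, minus strand, and chr5:30155248-30184593, plus strand). Hadha stood at 14.7, 12.6 and 10.5 RPKM in VAT WT and at 11.7, 12.1 and 12.5 in VAT KO. Its spleen values were 9.69 and 14.7 RPKM in WT and 15.1 and 13.6 in KO. The lowest value of all was spleen WT replicate 2, and the VAT values overlapped the others except that both spleen KO values exceeded the 3 of VAT KO. Hadhb stood at 21.2, 23.5 and 21.9 RPKM in VAT WT and at 21.5, 20.9 and 19.9 in VAT KO. It was at 31.1 and 24.9 RPKM in spleen WT, above all other samples, and at 21.1 and 22.4 in spleen KO. In spleen WT replicate 2 the alpha subunit was thus at its lowest and the beta subunit at its highest value of the 10 samples.

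Etfa and Etfb encode the subunits of ETF, the soluble carrier that takes electrons from the acyl-CoA dehydrogenases, and Etfdh encodes the inner membrane oxidoreductase that hands them to ubiquinone. Etfa stood at 33.3, 36.0 and 32.8 RPKM in VAT WT and at 37.6, 38.0 and 36.8 in VAT KO. In spleen it was at 64.7 and 48.0 RPKM in WT and at 37.4 and 32.4 in KO. Spleen WT alone was high, and the other 3 groups covered 32.4 to 38.0. Etfb stood at 52.5, 56.9 and 46.2 RPKM in VAT WT and at 43.9, 40.3 and 44.5 in VAT KO. In spleen it was at 45.2 and 28.8 RPKM in WT and at 24.6 and 24.5 in KO. Within each genotype every VAT value of Etfb lay above the spleen values. Spleen WT replicate 2 lay below the VAT WT values but above all those of VAT KO. On mm10, 53.0% of the exonic bases of Etfb (chr7:43444083-43457800, plus strand) are shared with the same-strand gene model Gm45233, which had no row of its own here, so how reads were divided between them is not known. Etfdh was lower, at 6.42 to 10.4 RPKM in VAT, 11.8 and 7.24 in spleen WT and 6.54 and 6.46 in spleen KO.

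Ordered by mean RPKM, Acadl, Etfb, Etfa, Cpt1a, Acadvl, Hadhb, Hadha, Acadm, Etfdh and Cpt2 followed each other in VAT WT, and the order was identical in VAT KO. In VAT WT the ranges of Acadl and Etfb overlapped, as did those of Etfa, Cpt1a and Acadvl taken pairwise as neighbours, and those of Acadm and Etfdh. Hadhb, Hadha and Cpt2 did not overlap with a neighbour. In spleen WT the order began with Etfa, Acadl and Etfb and placed Cpt1a ninth of the 10, and in spleen KO Cpt1a was seventh. The 10 values summed to 251 to 272 RPKM in VAT WT and 258 to 263 in VAT KO. They summed to 195 and 196 RPKM in spleen KO, to 208 in spleen WT replicate 3 and to 269 in spleen WT replicate 2. By its sum this last library reached the VAT range. By the median log2(RPKM + 1) of the 10 it did not, at 4.32 against 4.64 to 4.76 in VAT.

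Comparing VAT with spleen asks how the pathway differs between the tissues within a genotype. In WT, 2 of the 10 enzymes were called, against 26.1% of all genes tested: Cpt1a was higher in VAT (10.7% of all genes were) and Etfa lower (15.4%). With an unadjusted p under 0.05 there were 3 of 10, against 39.5%. Groups did not overlap for 4 of 10, against 49.1% of all genes: Cpt1a and Etfb were higher in every VAT sample (18.1%) and Hadhb and Etfa lower (31.0%). The median difference of the 10 was 0.12, beside -0.12 over all genes. Cpt1a was 4.05 times as high by mean RPKM, 31.86 ± 1.11 (SD, n = 3) against 7.86 ± 2.21 (SD, n = 2), a log2 difference of 1.91 ± 0.18 (SE; 95% interval 1.52 to 2.31; limma adjusted p = 9.2e-06). Etfa differed by -0.70 ± 0.15 (95% interval -1.03 to -0.36; limma adjusted p = 0.00593), with means of 34.1 ± 1.72 RPKM in VAT (SD, n = 3) and 56.4 ± 11.8 in spleen (SD, n = 2). In a bulk sort, a larger share of cells with a transcript and more transcript per cell cannot be told apart.

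Leaving out spleen WT replicate 2 keeps 1 spleen WT sample, assumed to vary like the other groups. The log2 difference of Cpt1a in WT was then 1.66 and that of Etfa -0.48. Both kept their call in every alternative tried, with adjusted p from 3.26e-06 to 0.000448 for Cpt1a and from 0.000626 to 0.0421 for Etfa. Etfb differed by 0.51 ± 0.18 and missed the threshold (limma adjusted p = 0.0569). Its call depended on the setting: 0.82 without spleen WT replicate 2 (0.00322), 0.19 without replicate 3 (0.352), 0.64 after quantile normalization (0.0112) and 0.66 after median ratio scaling (0.0186). Hadhb, at -0.31 ± 0.15 (limma adjusted p = 0.144), was called only when spleen WT replicate 3 was left out (-0.47, 0.0335). Acadl differed by 0.28 ± 0.16 (0.213) and was called only after quantile normalization (0.41, 0.0494). Scaling moved the whole table as well: the median difference of all genes went from -0.12 to 0.013 under median ratio scaling, and the calls from 1116 higher and 1607 lower to 1388 and 1031.

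In KO, 2 of the 10 enzymes were called, against 14.6% of all genes tested: Cpt1a and Etfb were higher in VAT (7.65% of all genes were) and 0 of 10 lower (6.94%). With an unadjusted p under 0.05 there were 3 of 10, against 28.2%. Groups did not overlap for 5 of 10, against 50.4% of all genes: Cpt1a, Acadl, Acadvl and Etfb were higher in every VAT sample (20.0%) and Hadha lower (30.4%). The median difference of the 10 was 0.19, beside -0.09 over all genes. Cpt1a was 2.61 times as high by mean RPKM, 36.96 ± 4.21 (SD, n = 3) against 14.2 ± 1.84 (SD, n = 2), a log2 difference of 1.32 ± 0.18 (95% interval 0.93 to 1.72; limma adjusted p = 0.000317). Etfb was 1.75 times as high, 42.9 ± 2.30 RPKM (SD, n = 3) against 24.5 ± 0.133 (SD, n = 2), a difference of 0.78 ± 0.18 (95% interval 0.39 to 1.17; limma adjusted p = 0.0114). The Etfb call was lost without spleen KO replicate 2 (0.0799) or without replicate 3 (0.0851), each of which leaves 1 spleen KO sample, at differences of 0.79 and 0.77. Etfa, called in WT, differed by 0.10 ± 0.15 in KO (0.726).

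Acadl missed the threshold in KO, at 0.47 ± 0.16 (95% interval 0.13 to 0.82; limma adjusted p = 0.0679). It passed after quantile normalization (0.0178), median ratio scaling (0.033) or sample weights (0.023), with the 2 groups fitted alone (0.0229), and without either spleen WT library (0.0206 and 0.0204). Without spleen KO replicate 2 or 3 it did not pass (0.262 and 0.220). The remaining 6 enzymes lay between -0.22 and 0.32: Acadvl at 0.32 ± 0.17, Etfdh at 0.26 ± 0.24, Acadm at 0.11 ± 0.19, Hadhb at -0.06 ± 0.15, Cpt2 at -0.15 ± 0.31 and Hadha at -0.22 ± 0.20. Under median ratio scaling the split of calls over all genes went from 798 higher and 724 lower to 908 and 558. Of the 10 enzymes, Cpt1a was thus called in both genotypes and each ETF subunit in 1.

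**Figure D2:**
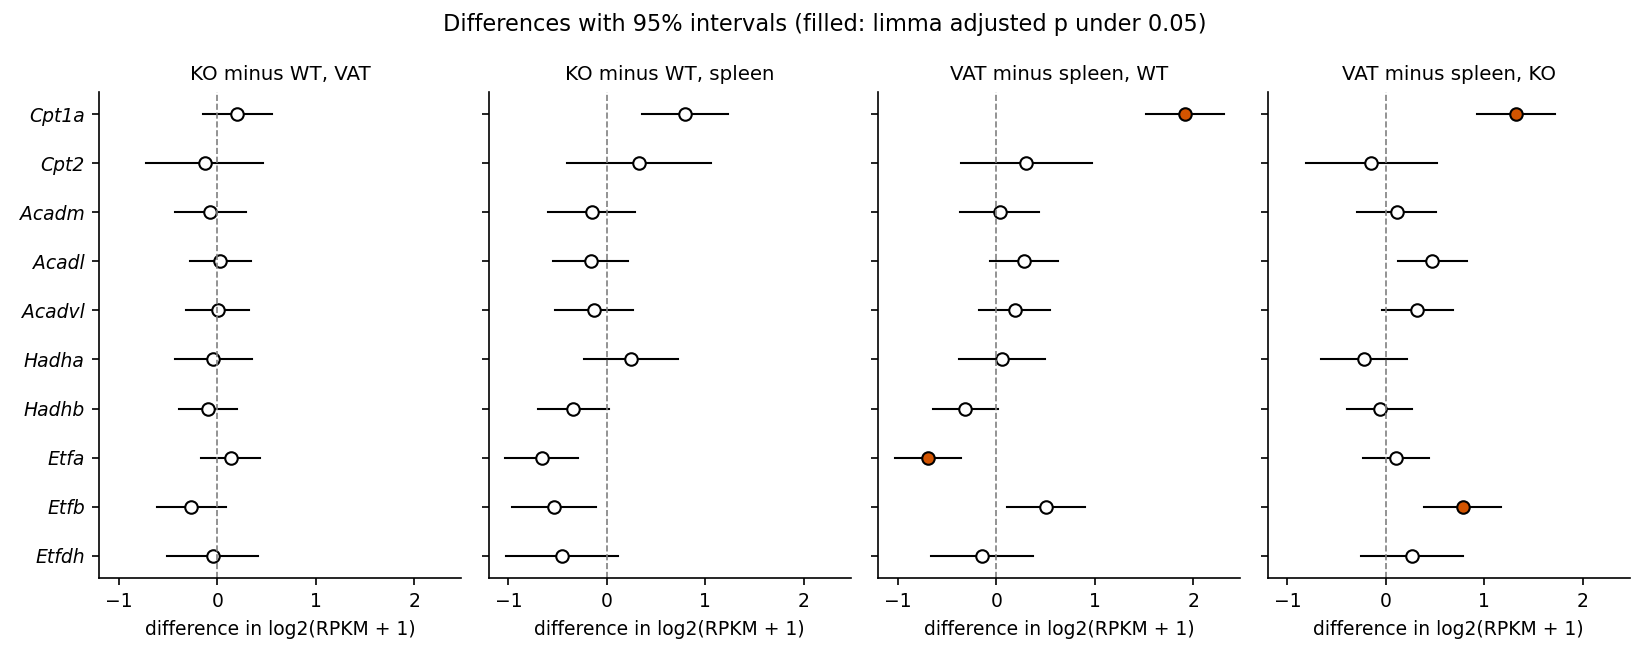
Difference in log2(RPKM + 1) of each enzyme in the 4 comparisons, with 95% limma intervals not adjusted for the number of genes; filled points have an adjusted p under 0.05. Cpt1a stands at 1.91 and 1.32 in the tissue comparisons, and no point is filled in the genotype comparisons.

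KO against WT in VAT asks what the loss of Srebf2 did to the pathway in adipose Tregs. limma called 0 of the 10 enzymes, against 0.422% of all genes tested (44 of 10429), and 0 of 10 had an unadjusted p under 0.05, against 7.35% of all genes. Groups did not overlap for 3 of 10, against 15.1% of all genes: Cpt1a and Etfa were higher in every KO sample (8.97%) and Etfb lower (6.16%). The median difference was -0.04, beside 0.02 over all genes. The intervals bound what could have been missed. Cpt1a stood at 0.20 ± 0.16 (95% interval -0.15 to 0.56; limma adjusted p = 0.956), Etfb at -0.26 ± 0.16 (-0.62 to 0.09; 0.884) and Etfa at 0.13 ± 0.14 (-0.17 to 0.43; 0.973). For Acadl (0.03, -0.28 to 0.34), Acadvl (0.0018, -0.32 to 0.32), Acadm (-0.07, -0.43 to 0.29), Hadha (-0.04, -0.43 to 0.35) and Hadhb (-0.09, -0.39 to 0.20), the intervals reached no further than 0.43 in size. Cpt2 (-0.13, -0.72 to 0.47) and Etfdh (-0.05, -0.51 to 0.42) had wider intervals. They were the enzymes with the widest spread between VAT KO samples relative to their level. Ctss, a protease of antigen presenting cells on the myeloid marker list, was called higher in VAT KO (1.31, limma adjusted p = 0.0449), while the 6 myeloid markers summed to 77.1 to 109 RPKM in VAT KO and 75.2 to 91.4 in VAT WT; their part in these values was not tested. The 7 adipose Treg markers summed to 1475 to 1657 RPKM in VAT KO and 1924 to 2149 in VAT WT, without overlap.

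In spleen, limma called 0 of the 10 enzymes and 0.0% of all genes tested between KO and WT. Srebf2 itself, the deleted gene, was not called (-2.45 ± 0.40, limma adjusted p = 0.244), so the lack of calls here says little. With an unadjusted p under 0.05 there were 873 genes, 8.37% of all, and 3 of the 10 enzymes: Cpt1a, Etfa and Etfb. A pseudocount of 0.1 called 2 genes, neither an enzyme of this set. Groups did not overlap for 5 of 10, against 32.6% of all genes: Cpt1a was higher in both KO samples (15.0%) and Hadhb, Etfa, Etfb and Etfdh lower (17.5%). The median difference was -0.16, beside -0.03 over all genes. Cpt1a stood at 0.79 ± 0.20 (95% interval 0.36 to 1.23; limma adjusted p = 0.517), a ratio of mean RPKM of 1.80. Etfa stood at -0.66 ± 0.17 (-1.03 to -0.30; 0.517), Etfb at -0.54 ± 0.20 (-0.97 to -0.11; 0.594), Etfdh at -0.46 ± 0.26 (-1.02 to 0.11; 0.641) and Hadhb at -0.34 ± 0.17 (-0.70 to 0.02; 0.596). The other 5 lay between -0.17 (Acadl) and 0.33 (Cpt2).

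These spleen values rested on the spleen WT libraries. Without spleen WT replicate 2 the difference of Cpt1a was 0.54, of Etfa -0.45 and of Etfb -0.22, none called, and the median of the 10 was -0.00785. Without spleen WT replicate 3, so against replicate 2 alone, all 3 were called, at 1.05 for Cpt1a (limma adjusted p = 0.00942), -0.88 for Etfa (0.00942) and -0.85 for Etfb (0.0115), the median was -0.36, and 1395 genes were called over the table. Spleen WT replicate 2 was also the library with the highest sum of the 6 myeloid markers, 301 RPKM against 216 to 223 in the other 3 spleen libraries; their part in these differences was not tested.

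The interaction, the genotype difference in VAT minus that in spleen, tests whether the deletion acted differently on the pathway in the 2 tissues. limma called 0 of 10 enzymes and 0.0% of all genes, with an unadjusted p under 0.05 for 2 enzymes and 738 genes (7.08%). Etfa stood at 0.80 ± 0.22 (95% interval 0.32 to 1.27; limma adjusted p = 0.543) and Cpt1a at -0.59 ± 0.26 (-1.15 to -0.03; 0.699). Without spleen WT replicate 2 these were 0.59 (0.821) and -0.33 (0.984), and without replicate 3 they were 1.01 (0.0188, called) and -0.85 (0.0523). The same term is the difference between the tissue comparisons of KO and WT, so the tissue differences of Etfa and Cpt1a in the 2 genotypes were not shown to differ.

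Ratios between paired enzymes within a library do not depend on how libraries were scaled. They were chosen after the values were seen and are a description. The Etfa to Etfb ratio of RPKM was 0.635, 0.633 and 0.711 in VAT WT, 0.856, 0.944 and 0.825 in VAT KO, 1.43 and 1.67 in spleen WT and 1.52 and 1.32 in spleen KO. All 6 VAT libraries thus had more RPKM for the beta than for the alpha subunit and all 4 spleen libraries the reverse, spleen WT replicate 2 among them. Within VAT the 3 KO ratios lay above the 3 WT ratios. This had to follow, since Etfa was higher and Etfb lower in every VAT KO sample. How often ratios of other gene pairs separate groups was not computed. The Cpt1a to Cpt2 ratio was 5.79 to 7.19 in VAT WT, 4.97 to 15.2 in VAT KO, 1.30 and 3.24 in spleen WT and 2.09 and 3.84 in spleen KO, again with no overlap between tissues. The Hadha to Hadhb ratio was 0.480 to 0.691 in VAT WT and 0.547 to 0.630 in VAT KO, and 0.606 and 0.716 in spleen KO. It was 0.591 in spleen WT replicate 3 and 0.311 in replicate 2, the lowest of the 10 libraries. The Acadl to Acadm ratio was 5.81 to 6.54 in VAT WT and 5.49 to 7.86 in VAT KO. In spleen it was 5.06 and 5.43 in WT and 5.42 and 5.06 in KO, so the tissues did not overlap. The Etfdh to Etfa ratio overlapped between tissues, at 0.175 to 0.277 in VAT and 0.151 to 0.200 in spleen.

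**Figure D3:**
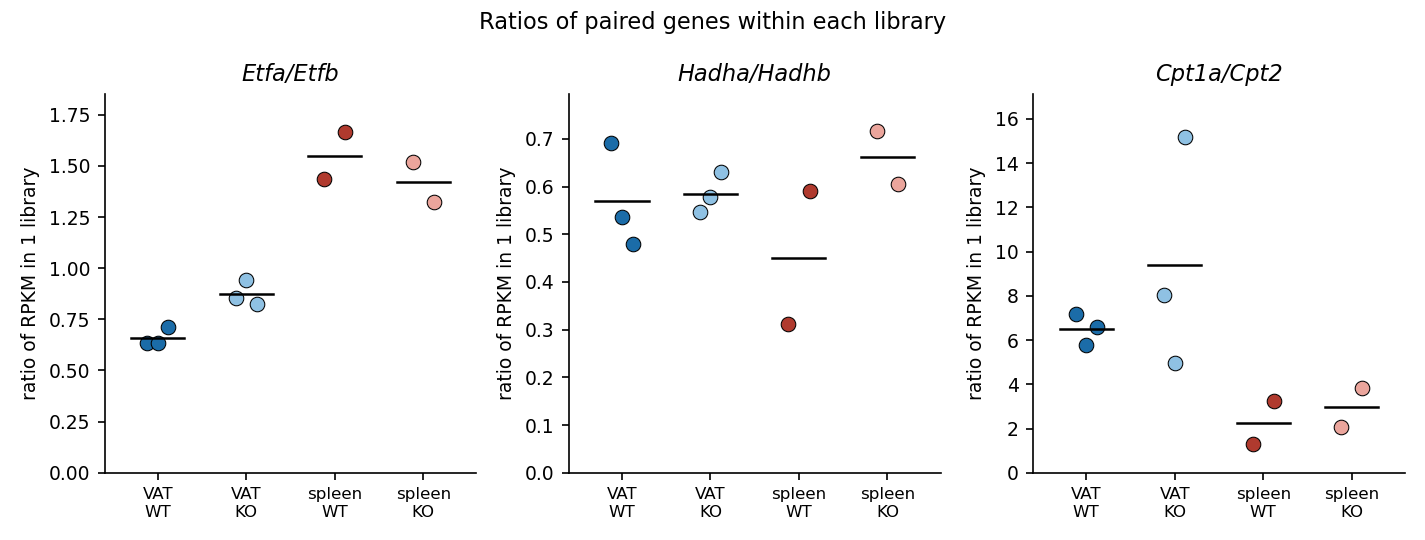
Ratio of RPKM between 2 enzymes within each library (linear axis from 0) for the subunits of ETF, the subunits of the trifunctional protein and the 2 carnitine palmitoyltransferases; points are samples and bars are group means. The Etfa to Etfb ratio is 0.633 to 0.944 in VAT and 1.32 to 1.67 in spleen.

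The stretches before the start sites of the 3 called enzymes are shown so that their composition can be read beside the levels. They are from RefSeq on GRCm38.p6, whose table held a window around the start of all 10 enzymes; bases inside annotated exons were left out, and each runs 5′ to 3′ on the gene's strand. Capitals mark AGGTCA, the core site of PPAR and ERR nuclear receptors, or CCAAT, the box bound by NF-Y, read on either strand. The stretches are chr19:3323051-3323284, plus strand, for Cpt1a; chr9:55512244-55512493, minus strand, for Etfa; and chr7:43443822-43444071, plus strand, for Etfb.
Cpt1a: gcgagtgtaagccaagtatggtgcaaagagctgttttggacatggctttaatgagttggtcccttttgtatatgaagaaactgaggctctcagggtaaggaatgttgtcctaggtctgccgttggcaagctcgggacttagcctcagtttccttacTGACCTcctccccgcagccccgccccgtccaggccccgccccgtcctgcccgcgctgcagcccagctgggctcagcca
Etfa: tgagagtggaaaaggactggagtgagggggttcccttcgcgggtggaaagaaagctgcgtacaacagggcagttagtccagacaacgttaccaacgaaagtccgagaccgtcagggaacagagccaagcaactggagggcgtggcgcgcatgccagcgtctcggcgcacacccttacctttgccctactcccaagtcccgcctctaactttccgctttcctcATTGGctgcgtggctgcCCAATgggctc
Etfb: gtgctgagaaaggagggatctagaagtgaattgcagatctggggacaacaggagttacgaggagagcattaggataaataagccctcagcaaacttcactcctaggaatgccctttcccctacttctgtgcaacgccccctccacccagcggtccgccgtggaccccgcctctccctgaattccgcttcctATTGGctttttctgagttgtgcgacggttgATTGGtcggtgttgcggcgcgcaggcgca
Starts are those of RefSeq; GENCODE M21 begins Cpt1a further upstream, at chr19:3322334-3385733, so the Cpt1a stretch lies inside the gene by that annotation, between its exons. The Cpt1a stretch held 1 AGGTCA on the reverse strand, beginning 94 bases before the RefSeq start, and the stretches of Etfa and Etfb held 2 CCAAT boxes each, the nearer beginning 11 and 29 bases before the start. Over all 10 windows AGGTCA was found in those of Acadm, Acadvl and Cpt1a, 3 of 10, against 16.3% of 32851 RefSeq windows. CCAAT, a motif added after the sequences were read, was found in 4 of 10 (Cpt1a, Etfa, Etfb and Etfdh), against 37.4%. The Cpt1a match is not in capitals above because it runs over the end of the printed stretch into the exon that follows. The paired PPAR element (DR1: AGGTCA, any base, AGGTCA) and the ERR element TCAAGGTCA were in 0 of the 10 windows, against 0.0396% and 0.423%; both contain AGGTCA and so overlap its matches. A match describes these letters and is not evidence of binding.

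Around the 10 enzymes, the rest of the pathway was read from gene lists, described by counts and medians. Beside these counts, 10.7% of all genes were called higher and 15.4% lower in VAT in WT, and 7.65% and 6.94% in KO. Of 19 other mitochondrial beta-oxidation enzymes and carriers, 17 had a row and 16 were tested. In WT, 1 of the 16 was higher and 2 lower in VAT than in spleen, with a median of -0.12, equal to that of all genes. Slc25a20, the carrier that exchanges acylcarnitine for carnitine across the inner membrane between CPT1 and CPT2, was higher (0.88 ± 0.21, limma adjusted p = 0.00928). Its call was lost with sample weights and without spleen WT replicate 2, where the difference was 0.58. Slc22a5, the plasma membrane carnitine importer, was lower in VAT in WT (-0.87 ± 0.25, 0.0216) and in KO (-1.02 ± 0.25, 0.0139), where it was the only one of the 16 called. It was at 3.91 to 6.10 RPKM in VAT WT against 8.79 and 10.8 in spleen WT, and at 4.33 to 7.97 in VAT KO against 14.3 and 12.7 in spleen KO. Its WT call was lost in 6 of 19 alternatives, among them without spleen WT replicate 3 or VAT WT replicate 1 or 2, and its KO call in 3, without spleen KO replicate 2 or 3 or VAT KO replicate 1. Acad10, an acyl-CoA dehydrogenase family member, was lower in WT (-1.07 ± 0.35, 0.0416) and lost its call in 11 of 18 alternatives. Of Cpt1a, Slc25a20 and Slc22a5, only Cpt1a kept its WT call in every alternative tried.

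Among enzymes that make and split acyl-CoA, Acss2, which activates acetate, was higher in VAT in WT (0.89 ± 0.19, limma adjusted p = 0.00445) and Acsf2, of the acyl-CoA synthetase family, lower (-1.11 ± 0.29, 0.0150; 0.165 without spleen WT replicate 2, and also lost without VAT WT replicate 1). They were the 2 called of 10 synthetases in WT, and 0 of 10 were called in KO, where Acsl4 (0.70 ± 0.23, 0.0619) and Acsl5 (-0.33 ± 0.16, 0.192) had the smallest p. Of 8 thioesterases and genes of malonyl-CoA control, 1 was higher and 2 lower in WT, and 1 was higher in KO. Acot7, which hydrolyses long-chain acyl-CoA in the cytosol, was the one higher in both, by 1.94 ± 0.17 (4.86e-06) and 1.95 ± 0.17 (7.34e-06), with means of 101.7 and 97.4 RPKM in VAT against 26.1 and 24.5 in spleen. Its call held in every alternative tried. Acot8 (-0.75 ± 0.24, 0.0337) and Acot13 (-0.78 ± 0.26, 0.0417) were lower in WT and neither was called without spleen WT replicate 2. Of 13 peroxisomal oxidation genes, Ehhadh, the peroxisomal bifunctional enzyme, was higher in WT (1.63 ± 0.52, 0.0363), and spleen WT replicate 2 listed it at 0; without that library the difference was 0.56 and not called (0.415), and 2 other genes of the list, Ech1 and Crot, were called higher. In KO, 0 of the 13 were called, with Acox3 (0.56 ± 0.24, 0.143) and Pecr (-0.74 ± 0.34, 0.176) nearest.

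Genes that control the pathway through PPAR and ERR receptors included Pparg, the receptor of the adipose Treg programme. Of 13 tested, 4 were higher and 2 lower in VAT in WT, against 10.7% and 15.4% of all genes. In KO, 1 was higher and 1 lower, against 7.65% and 6.94% of all genes. Pparg was higher by 3.99 ± 0.20 in WT (limma adjusted p = 2.2e-08) and by 3.84 ± 0.20 in KO (4.56e-08), at 37.9 and 24.6 RPKM on average in VAT against 1.46 and 0.799 in spleen. Rxra, its partner receptor, was higher in WT (1.40 ± 0.37, 0.0153; 0.146 without spleen WT replicate 2, and also lost without VAT WT replicate 3). Tfam, which maintains mitochondrial DNA, was lower in WT (-0.66 ± 0.16, 0.0105), and Pprc1, a coactivator related to PGC-1, was lower in WT (-0.82 ± 0.21, 0.0116) and in KO (-0.72 ± 0.21, 0.0338). The Pprc1 call was lost in WT without spleen WT replicate 3, and in KO in 6 of 19 alternatives (median ratio scaling, the replicate block, and without spleen KO replicate 2 or any 1 of the VAT KO libraries), with adjusted p up to 0.309. Without spleen WT replicate 2 the WT counts were 1 higher and 2 lower. Of 5 PPAR targets outside oxidation, 2 were higher in each genotype. Plin2, which coats lipid droplets, was higher by 4.46 ± 0.16 in WT (1.86e-09) and 3.68 ± 0.16 in KO (1.39e-08), and Fabp5, a fatty acid binding protein, by 0.93 ± 0.22 (0.00811) and 1.00 ± 0.22 (0.0081; 0.0996 without spleen KO replicate 2).

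**Figure D4:**
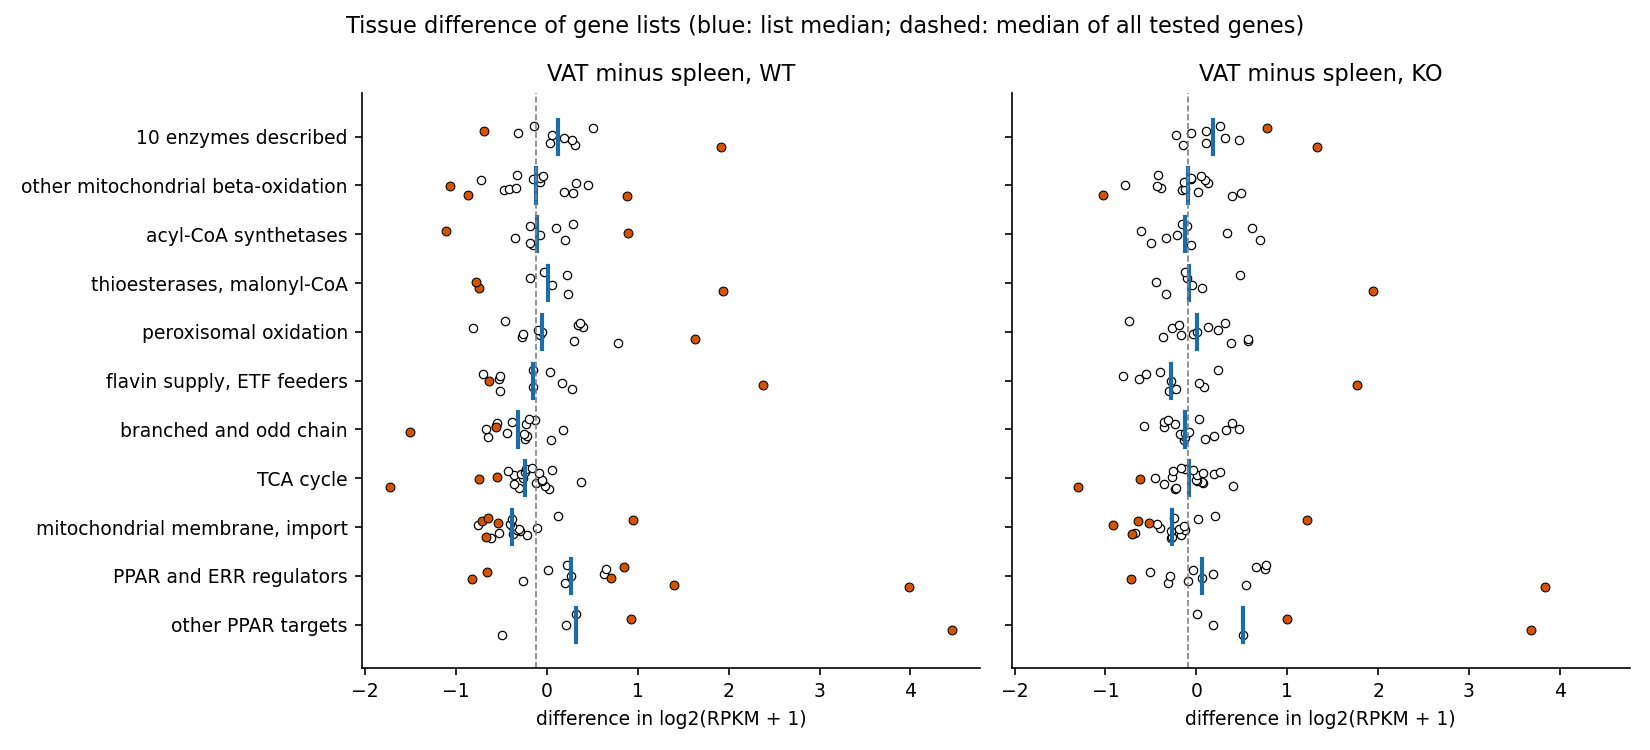
Difference in log2(RPKM + 1) between VAT and spleen in WT (left) and KO (right) for the 10 enzymes and for genes of related lists; points are genes, filled where limma gave an adjusted p under 0.05, blue bars are list medians and the dashed line is the median of all tested genes. The filled points of Cpt1a at 1.91 and 1.32 lie below those of Pparg at 3.99 and 3.84 and of Plin2 at 4.46 and 3.68.

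The counts of the next lists are read against the 10.7% of all genes called higher and 15.4% called lower in VAT in WT, and 7.65% and 6.94% in KO. Of 11 genes of flavin supply and of other dehydrogenases that feed ETF, Slc52a3, a riboflavin transporter, was higher in WT (2.38 ± 0.26, limma adjusted p = 3.43e-05) and in KO (1.76 ± 0.26, 0.000603). Ivd, isovaleryl-CoA dehydrogenase, was lower in WT (-0.64 ± 0.21, 0.0414) and lost its call in 12 of 19 alternatives. Of 16 genes of branched and odd chain oxidation, Mccc2 (-1.51 ± 0.38, 0.0124) and Hibadh (-0.56 ± 0.16, 0.0195) were lower in WT, neither without spleen WT replicate 2, and 0 were called in KO, where Hibadh (-0.36 ± 0.16, 0.153) and Aldh6a1 (-0.57 ± 0.34, 0.303) had the smallest p. Of 20 genes of the tricarboxylic acid cycle, 3 were lower in WT and 2 in KO, so neither this list nor the branched chain list stood far from all genes by its count. Idh2, mitochondrial isocitrate dehydrogenase, was lower by -1.72 ± 0.23 (0.000134) and -1.30 ± 0.23 (0.00185), and held in every alternative tried. Suclg1 was lower by -0.75 ± 0.18 (0.00826; 0.0693 without spleen WT replicate 2) and -0.62 ± 0.18 in KO (0.032; lost in 7 of 19 alternatives, among them both scalings, the replicate block and either spleen KO library left out, with adjusted p up to 0.168), and Sdha by -0.54 ± 0.14 in WT (0.0118; 0.0634 without it).

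Of 18 genes of mitochondrial membranes and import, which stand in for mitochondrial content, 1 was higher and 4 lower in each genotype, with medians of -0.38 in WT and -0.27 in KO beside -0.12 and -0.09 over all genes. Slc25a3, the phosphate carrier, was higher by 0.95 ± 0.15 (limma adjusted p = 0.000555) and 1.21 ± 0.15 (0.000127). Phb2 was lower by -0.72 ± 0.18 (0.00996) and -0.64 ± 0.18 (0.0276), Phb by -0.54 ± 0.16 (0.0250) and -0.52 ± 0.16 (0.0426), Slc25a5 by -0.64 ± 0.16 in WT (0.00975) and Tomm70a by -0.71 ± 0.18 in KO (0.0218). Without spleen WT replicate 2 the WT count was 1 higher and 0 lower, with a median of -0.22. In KO the 4 lower calls were 0 with the replicate block or without spleen KO replicate 3, and 1 without spleen KO replicate 2 or VAT KO replicate 1 or 2. Phb in KO lost its call in 10 of 19 alternatives, and Phb2 and Tomm70a in 5 each. The Slc25a3 call held in every alternative tried in both genotypes.

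Between genotypes, limma called 0 genes of these 10 lists in VAT and 0 in spleen, against 0.422% and 0.0% of all genes tested. In VAT the smallest p among the beta-oxidation list were those of Acads, the short-chain dehydrogenase (-0.43 ± 0.20, limma adjusted p = 0.693), and Acadsb (0.34 ± 0.21, 0.889). Acsl3, an acyl-CoA synthetase, stood at -0.99 ± 0.29 (0.309) and Acss2 at -0.44 ± 0.17 (0.527). Pparg stood at -0.60 ± 0.18 (0.304), Plin2 at -0.34 ± 0.14 (0.608) and Fabp5 at -0.46 ± 0.20 (0.626). Each of the last 3 was lower in all VAT KO than in all VAT WT samples, as were 6.16% of all genes. The adipose Treg markers, Pparg among them, moved the same way: 7 of 7 differences were below 0, with a median of -0.39 and 0 called, and 5 of 7 were lower in KO without overlap. The part of this shift in the genotype values of the enzymes was not tested. In spleen, Acad11 (1.01 ± 0.50, 0.604) and Eci1 (-0.59 ± 0.33, 0.638) of the beta-oxidation list were nearest, with medians of the list at -0.14 in spleen and -0.15 in VAT.

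Markers of other cells were read beside the tissue difference of Cpt1a. The 7 adipose Treg markers measured were all called higher in VAT in both genotypes with sums (RPKM) of 74.6 to 101 in spleen, 1924 to 2149 in VAT WT and 1475 to 1657 in VAT KO. Of 12 adipocyte markers 1, Lipe, had a row, at 2.26 to 3.40 RPKM in spleen and 1.63 to 2.96 in VAT. The 6 myeloid markers with a row of 16 had sums of 75.2 to 109 RPKM (VAT) and 216 to 301 (spleen), the 7 B cell markers of 9 to 53.5 to 202 and 101 to 133, and 2 markers of stroma and endothelium of 10 to 4.80 to 12.1 and 17.0 to 35.1. Of 9 neutrophil markers only Mmp9 had a row, at 0.387 to 4.93 RPKM in spleen and 112 to 217 in VAT, and 2 of 9 markers of CD8 T and NK cells and 0 of 9 of red cells did. The 7 adipose Treg markers were Pparg, Il1rl1, Klrg1, Gata3, Ccr2, Areg and Rora. Of the myeloid markers, Cst3 was called higher in VAT in WT (0.63) and KO (0.62). Ctss was called lower in both (-3.89 and -2.42), and Adgre1 lower in WT (-1.02). The Cst3 calls were lost in 6 and 10 of 19 alternatives. Mmp9 was called higher and Pecam1 lower in both genotypes. The B cell marker Cd22 was called lower in KO, lost in 7 of 18 alternatives. The part of other cells in the level of the enzymes was not tested.

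The genes whose levels followed an enzyme most closely over the 10 samples were found by Pearson correlation of log2(RPKM + 1), as a description, since the samples share tissue and library. For Cpt1a they were Fam107b (r = 0.990), Cd40lg (0.984) and Cxcr4 (0.983). Cxcr4, a chemokine receptor, had mean levels of 43.3 RPKM in VAT WT, 49.1 in VAT KO, 11.1 in spleen WT and 21.8 in spleen KO, the same order of groups as Cpt1a. For Acadl they were Pard3 (0.962), Tec (0.955) and Oaz2 (0.950), and for Hadha Zfp799 (0.942), Hgs (0.933) and Lipt1 (0.924). Pard3, Zfp799 and Lipt1 were near or below 1 RPKM on average in most groups, so their correlations rest on low values.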

How the data were processed

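Bulk RNA sequencing was done on polyA RNA of sorted Tregs; per the labels' protocols, cDNA came from the SMART-seq v4 kit and libraries from Nextera XT, which does not mark strand. The authors deposited 1 table of RPKM per gene and sample, per the file headers; STAR and mm10 are named in the submitters' processing notes, and for the counter, gene models and scaling total the sources used here give nothing. RPKM holds no counts, so neither depth nor counting error could be had. Of 11 samples in the labels, 10 matched a column by name; spleen KO replicate 1 was not analysed here, and 1 column of per-sample values that matched no sample was not used.

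Values were tested as log2(RPKM + 1) with limma 3.58.1 in R 4.3.3 (4 group means in 1 fit, trend on, robust off, two-sided), for the 10429 genes that reached 1 RPKM in 2 or more samples, with Benjamini-Hochberg adjustment over all of them, and the script was tested on simulated data. Alternatives were pseudocounts of 0.1 and 5, other filters, quantile and median ratio scaling, sample weights, a replicate block, 2 groups alone and each library left out. Counts of alternatives include libraries in neither group compared, whose removal leaves the difference as it was and can only alter its call. The rule for named genes was all 10 enzymes, Srebf2, Foxp3, up to 4 called genes of a list by smallest p or, with none called, the 2 with the smallest p for lists described in a comparison, called markers, and the 3 genes most like Cpt1a, Hadha and Acadl; Dvl2, Ech1, Crot and the ratios were added after values were seen. Members and lists were chosen with earlier results of these data known. Gene positions are from GENCODE M21 and sequences from RefSeq (GRCm38.p6).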

Additional observations from a re-analysis of the deposited data

How the results depend on the processing

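Of the single-enzyme differences, 422 kept direction and call under alternatives that keep all libraries, 7 gained a call and 6 reversed. With 1 library left out, 467 kept both, 8 gained and 2 lost a call and 23 reversed. These counts include fits where the library left out was in neither group compared. There the difference could not change, only its call, so the 467 overstate how stable the differences were. With all libraries kept, reversals were of differences near 0: in VAT KO against WT Acadl was -0.014 and Acadvl -0.038 under median ratio scaling, Acadvl was -0.019 under quantile normalization and -0.0046 with sample weights, and in KO between tissues Hadhb was 0.043 under quantile normalization and 0.022 under median ratio scaling. With 1 library left out, larger differences reversed too: VAT KO against WT ran from -0.40 to 0.13 for Cpt2, -0.057 to 0.11 for Acadl, -0.063 to 0.073 for Acadvl, -0.15 to 0.067 for Hadha and -0.22 to 0.093 for Etfdh; spleen KO against WT from -0.37 to 0.063 for Acadm, -0.35 to 0.020 for Acadl, -0.34 to 0.075 for Acadvl and -0.035 to 0.52 for Hadha; VAT against spleen in WT from -0.18 to 0.25 for Acadm, -0.019 to 0.39 for Acadvl, -0.22 to 0.34 for Hadha and -0.47 to 0.17 for Etfdh, and in KO from -0.42 to 0.11 for Cpt2; and the interaction from -0.14 to 0.29 for Acadm, -0.073 to 0.34 for Acadvl and -0.040 to 0.59 for Etfb. The number of genes called in VAT KO against WT was 44, 20 with a pseudocount of 5, 83 with sample weights and 2 to 59 with 1 library left out (2 without VAT WT replicate 1 or VAT KO replicate 3). It was 0 in spleen, 2 with a pseudocount of 0.1 and 0 to 1395 with 1 left out. In WT between tissues it was 2723, 1318 with sample weights, 1757 with the 2 groups alone and 1718 to 3892 with 1 left out, and in KO 1522, 2329 with sample weights and 747 to 2209 with 1 left out. For the interaction it was 0, 2 with a pseudocount of 0.1 and 0 to 514 with 1 left out. The number of enzymes called was 4 in WT between tissues under quantile normalization; with 1 library left out it was 0 to 3 in spleen KO against WT, 1 to 3 in KO between tissues and 0 to 1 for the interaction. The median of the 10 enzymes in WT between tissues was 0.058 over genes with a mean RPKM of at least 5, where Cpt2 was not tested, 0.24 under quantile normalization and 0.27 under median ratio scaling; in KO it was 0.14 with a pseudocount of 5, 0.26 with that filter, 0.24 and 0.27, and for the interaction 0.11 and 0.095 under the 2 scalings. With 1 library left out it ran from -0.081 to 0.00519 in VAT KO against WT, -0.36 to -0.00785 in spleen, -0.0022 to 0.32 in WT between tissues, 0.090 to 0.23 in KO and -0.023 to 0.36 for the interaction. Apart from the filter and the lost libraries themselves, the cause was not tested. Whether replicate numbers pair the samples was not settled. Deviations from the group means of same-numbered WT and KO samples correlated at -0.092, 0.049 and -0.15 in VAT and -0.061 in spleen. Those of same-numbered spleen and VAT samples correlated at 0.092 and 0.18 in WT and 0.0031 and 0.046 in KO. The latter were all above 0 but not all above 0.1. Differently numbered WT and KO samples of VAT correlated at -0.15 to 0.22. Differently numbered spleen and VAT samples correlated at -0.18 to 0.080 in WT and -0.047 to 0.047 in KO. With 2 samples in each spleen group the deviations mirror each other, so this check could not exclude pairing. With the replicate block, 39 genes were called in VAT KO against WT, 0 in spleen, 2066 in WT and 1096 in KO between tissues and 0 for the interaction, and the enzymes called stayed Cpt1a and Etfa in WT and Cpt1a and Etfb in KO. Depth is unknown, and the small number of samples a group limits the precision in both tissues.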
